A study of Mus musculus with 6 samples.

Results

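The DEAD and DEAH box helicases were examined in long-term haematopoietic stem cells (LT-HSCs) labelled Zcchc8 KO (knockout) or wild type. LT-HSCs are the marrow cells from which all blood lineages descend. The genes were taken by symbol, as every listed gene whose name is Ddx or Dhx followed by a number and at most one letter, leaving out the RNA sensors of the RIG-I family, which gave 48 of the 14986 genes in the expression table. The 6 RNA-seq libraries of polyadenylated RNA comprised 3 from cells labelled Zcchc8 KO and 3 from cells labelled wild type, all untreated mouse bone marrow, lineage depleted and sorted, with 1500 cells behind each library. The labels state no strain, age or sex and do not say how the gene was deleted, and nothing says that replicates came from separate animals, so p-values measure the spread between these libraries. ZCCHC8 holds together the nuclear exosome targeting complex, which delivers short-lived nuclear RNA to the exosome, and the study asks how its loss bears on R-loops, in which RNA pairs with one DNA strand and displaces the other.

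DEAD and DEAH box proteins use ATP to separate RNA strands or to strip proteins from RNA. DEAD box members open short duplexes locally, whereas DEAH members walk along a strand, and the family serves splicing, mRNA export, ribosome assembly, translation and decay. Some of its members, among them Ddx5, Dhx9 and Ddx41, are also known to unwind or prevent R-loops. In blood, DDX41 is a gene mutated in inherited and acquired human myeloid neoplasms.

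The family takes its name from the second sequence motif of the helicase core, where aspartate, glutamate and alanine are followed by aspartate or histidine. The coding sequences (GENCODE M21, GRCm38, longest coding transcript of each gene) are shown for the members on which the results turn, with 18 bases on each side of the 12 bases, in capitals, that encode this motif.
Dhx8: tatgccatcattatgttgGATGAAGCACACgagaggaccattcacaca
Dhx15: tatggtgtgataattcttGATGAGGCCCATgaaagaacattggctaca
Ddx41: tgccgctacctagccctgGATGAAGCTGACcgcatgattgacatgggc
Ddx5: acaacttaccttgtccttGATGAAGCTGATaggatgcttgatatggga
Ddx39b: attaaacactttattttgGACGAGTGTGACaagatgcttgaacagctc
Dhx29: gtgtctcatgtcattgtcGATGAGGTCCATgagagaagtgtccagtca
Dhx9: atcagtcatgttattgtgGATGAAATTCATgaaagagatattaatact
Searched in frame and 70 to 160 codons after the first helicase motif (GGN AAR followed by a threonine or serine codon), the codons of the DEAD form stood in 24 of the 48 genes and those of the DEAH form in 8. The third codon differed in 5 genes that otherwise end like the DEAD form, among them Ddx39b, and in 7 that end like the DEAH form, among them Dhx29 and Dhx9. In the remaining 4 genes, Ddx1, Ddx11, Ddx24 and Dhx32, no such codons were found at that spacing, which says only that these letters are not in that window. All 48 genes matched the annotation, and none of the 48 lacked a complete coding sequence.

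Deposited values are FPKM, reads scaled to gene length and to library depth. The steps between low values gave 18059345 to 25709700 reads behind the FPKM of a library, so that 1 read on a gene of 2 kb is worth 0.0194 to 0.0277 FPKM. LT-HSC markers were present in both groups, with the 8 genes Procr, Slamf1, Kit, Ly6a, Mecom, Hlf, Fgd5 and Hoxb5 summing to 221.5 to 256.7 FPKM in KO libraries and 232.7 to 278.2 FPKM in wild-type libraries. Ly6a was the largest part of that sum, and single markers differed by value. Of the 8, 4 were lower in KO without overlap and at an unadjusted p under 0.05 (limma), and none passed adjustment. Over all tested genes, 6.99% were lower in KO without overlap, and 4.33% were lower at an unadjusted p under 0.05 (limma). Kit averaged 23.2 ± 4.03 FPKM in KO and 36.7 ± 3.97 FPKM in wild type (SD, n = 3), Hlf 9.65 ± 1.77 and 15.03 ± 1.86 FPKM, Procr 39.1 ± 8.43 and 52.6 ± 4.56 FPKM, and Hoxb5, listed at 0 in KO library 2, was at most 0.758 FPKM in KO and at least 0.981 FPKM in wild type. The 4 eosinophil markers summed to 160.9 to 204.9 FPKM in KO and to 0.116 to 1.02 FPKM in wild-type libraries, the 6 erythroid markers to 401.2 to 423.5 and 92.96 to 124.2 FPKM, and the 7 granulocyte markers to 3593 to 4008 and 2687 to 2892 FPKM. S100a8 and S100a9 carried the granulocyte sum, whereas Mpo averaged 49.9 ± 4.65 FPKM in KO and 67.5 ± 4.07 FPKM in wild type, without overlap, and Elane 130.2 ± 25.97 and 132.2 ± 10.996 FPKM. For T and NK cells, 3 of 6 markers were listed, with sums, nearly all Nkg7, of 296.5 to 311.8 FPKM in KO and 177.0 to 228.9 FPKM in wild-type libraries. Of 6 B cell markers 5 were listed, and their sum, carried by Igkc in wild type, was 41.1 to 64.4 FPKM in KO and 789.8 to 913.9 FPKM in wild-type libraries. Cd79a and Ighm lay the other way, higher in KO by value and without overlap, at 7.83 ± 2.07 and 14.9 ± 2.76 FPKM in KO and 1.80 ± 2.12 and 8.10 ± 3.18 FPKM in wild type. Whether cells of other lineages in the sort bear on the helicase values was not tested, and in bulk RNA fewer cells of a type and less RNA per cell cannot be told apart. Zcchc8 stood at 10.4, 5.54 and 5.92 FPKM in KO and at 8.93, 5.24 and 5.16 FPKM in wild-type libraries (exact two-sided permutation test, p = 0.5, where 0.1 is the smallest p that 3 against 3 allow). A value summed over a gene's exons does not show the loss of single exons, and how the gene was deleted is not stated. The Zcchc8 values thus do not check the labels.

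In LT-HSCs the helicase genes ranged over more than 2 orders of magnitude and 2 of them stood apart from all others. Ddx5, an RNA helicase and transcription coregulator that also unwinds R-loops (chromosome 11, 106780355 to 106789185, GRCm38, minus strand), was the most abundant, at 163.8, 157.4 and 173.0 FPKM in KO and 147.1, 163.3 and 165.2 FPKM in wild-type libraries. It made up 23.6% of the summed FPKM of the 48 genes. Ddx39b, the export and splicing helicase UAP56 (chromosome 17, 35241746 to 35253707, plus strand), followed at 70.4, 68.2 and 77.6 FPKM in KO and 79.2, 74.2 and 58.9 FPKM in wild-type libraries. The lowest Ddx5 library lay above the highest Ddx39b library, and the lowest Ddx39b library above the highest of the third gene, Ddx56. These were the only 2 of 47 neighbouring pairs in the order of mean levels whose ranges over the 6 libraries were separate. The order of neighbours further down was thus not resolved, while genes further apart in it could be separate. From the third place on came Ddx56, a nucleolar helicase of ribosome assembly, Ddx24, likewise of ribosome biogenesis, and Ddx42, a factor bound to the U2 small nuclear ribonucleoprotein. Their means over the 6 libraries were 28.3, 25.5 and 23.9 FPKM. A mean of at least 10 FPKM was reached by 21 genes, 9 lay between 5 and 10 FPKM and 18 were under 5 FPKM. The germ-line helicase Ddx4, also called Vasa, averaged 1.04 FPKM, and Ddx60, an interferon-induced helicase, had the lowest mean of the tested members, 1.02 FPKM.

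**Figure D1:**
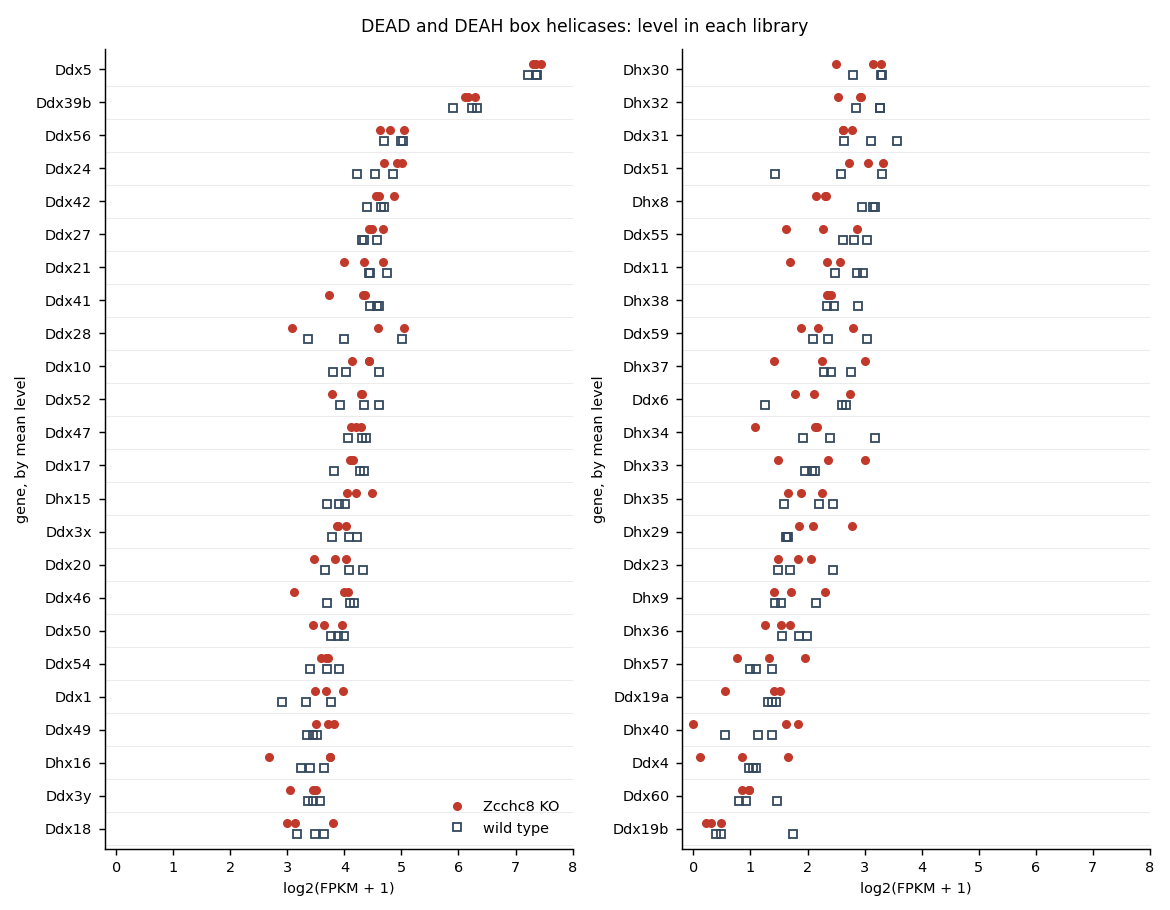
Level of each of the 48 helicase genes in each library as log2(FPKM + 1), with filled circles for the 3 Zcchc8 KO libraries above open squares for the 3 wild-type libraries, ordered by mean level down the left and then the right column. Ddx5 and Ddx39b stand apart at the top, the circles and squares of most genes interleave, and Dhx8 is a gene whose circles and squares are apart.

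None of the 47 helicase genes tested differed between KO and wild type by the test used. That was limma on log2(FPKM + 1) for the 11837 genes whose mean reached 1 FPKM, with Benjamini-Hochberg adjustment over all of them and a threshold of 0.05, and 0.228% of all tested genes passed. The one helicase gene below the expression filter was Ddx19b. At an unadjusted p under 0.05 there was 1 helicase gene (limma), lower in KO, against 9.2% of all tested genes, of which 4.87% were higher and 4.33% lower, and with limma-voom on recovered reads there was again 1 and none passed adjustment. The 3 KO and 3 wild-type libraries did not overlap for 4 of the 47, or 8.51%, where this held for 15.2% of all tested genes. These were 2 higher and 2 lower in KO, against 8.24% and 6.99% of all tested genes. The median log2 change was -0.10 for the helicases and 0.0021 for all tested genes, and 29 of the 47 were lower in KO by value, against 49.8% of all tested genes. Of the 47 log2 changes, 41 were smaller than 0.5 in size.

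The summed level of the family was alike in both groups, at 677.0, 702.6 and 666.4 FPKM in KO and 691.4, 681.2 and 692.1 FPKM in wild-type libraries, or 0.11% to 0.118% of all listed FPKM. Absence of a call is not evidence of equal expression. The 95% interval of the log2 change stayed within 1 in both directions, which is 2-fold on this scale, for 29 genes and reached beyond it for 18. It stayed within 1.5-fold for 9 genes.

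**Figure D2:**
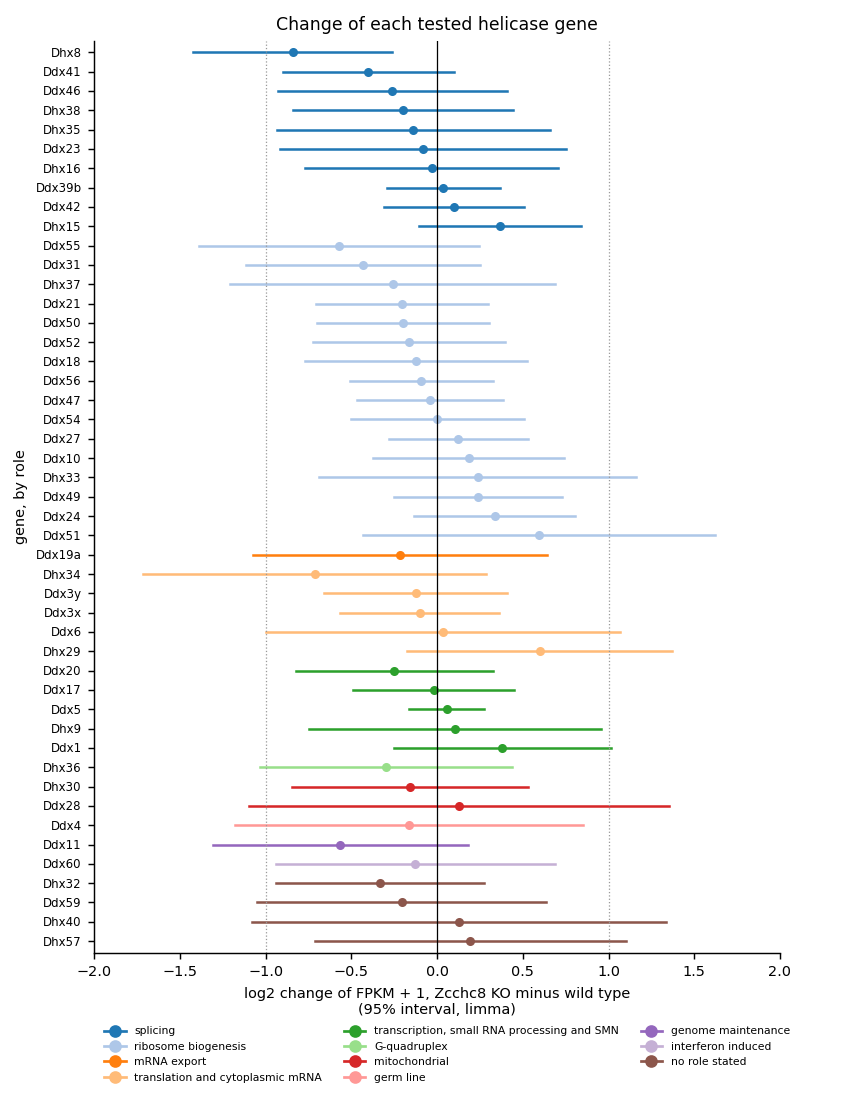
Log2 change of FPKM + 1, Zcchc8 KO minus wild type, for the 47 tested helicase genes with the 95% interval from limma, grouped and coloured by the first role list that holds each gene. Dotted lines mark a log2 change of 1 either way, and the interval of Dhx8 is the only one that does not reach 0.

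**Figure D3:**
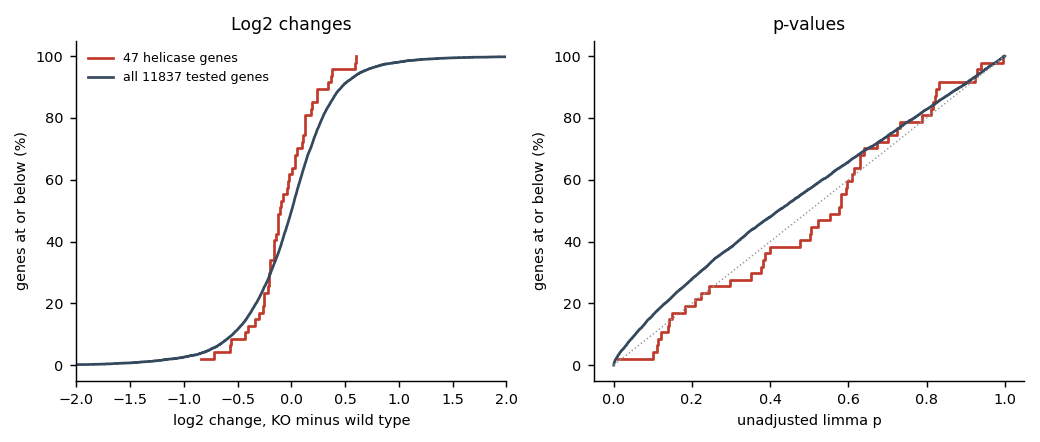
Cumulative share of genes by log2 change (left) and by unadjusted limma p (right), for the 47 helicase genes in red and all 11837 tested genes in dark blue, with a dotted line where p-values would be spread evenly. The helicase changes lie between -0.84 and 0.60, and 1 helicase gene has an unadjusted p under 0.05.

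Among the 10 helicases of the spliceosome, 3 were higher and 7 lower in KO by value, and Dhx8 was the one with the smallest p of the whole family. Dhx8, the DEAH helicase known as PRP22 that releases the spliced mRNA from the spliceosome (chromosome 11, 101732919 to 101767358, plus strand), stood at 3.98, 3.44 and 3.92 FPKM in KO and at 7.88, 8.09 and 6.76 FPKM in wild-type libraries. All KO libraries lay below all wild-type libraries, and the mean was 2.004-fold higher in wild type. The values rested on 515, 328 and 411 reads in KO and 716, 745 and 643 reads in wild-type libraries. Its log2 change was -0.84 ± 0.26 (SE), with a 95% interval of -1.42 to -0.26, an unadjusted p of 0.00954 and a limma adjusted p of 0.34, so it did not pass. Under each of the other settings tried, its adjusted p was at least 0.314. The spread of Dhx8 between replicates was the smallest relative to counting error in the family, with a chi-square of 4.40 per degree of freedom where the median helicase had 53.6.

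Dhx15, the PRP43 helicase that takes spent spliceosomes apart and also acts in ribosome assembly (chromosome 5, 52150203 to 52190514, minus strand), measured 15.6, 21.3 and 17.4 FPKM in KO and 11.95, 14.0 and 15.2 FPKM in wild-type libraries. Every KO library was above every wild-type library, by a narrow margin between KO library 1 and wild-type library 3. Under rescaling to a fixed total per library, the groups of Dhx15 overlapped. Its log2 change was 0.37 ± 0.21 (SE; limma adjusted p = 0.629). Ddx41, a helicase of catalytic spliceosomes that is also known to limit R-loops (chromosome 13, 55530410 to 55536658, minus strand), measured 12.3, 19.1 and 19.6 FPKM in KO and 20.9, 23.3 and 22.9 FPKM in wild-type libraries. The groups did not overlap, with KO library 1 well below the others, and the log2 change was -0.40 ± 0.22 (SE; limma adjusted p = 0.618). Without KO library 1 it was -0.20. An annotated antisense gene, Gm46416, shares 17.4% of the exon length of Ddx41, and the sources used here do not state whether counting used the strand, so reads of the pair cannot be told apart. Dhx8, Dhx15 and Ddx41 were 3 of the 4 helicases without overlap, which held for 15.2% of all tested genes. The other members of the splicing list overlapped between groups: Ddx42 averaged 24.7 ± 2.99 FPKM in KO and 23.0 ± 2.55 FPKM in wild type (SD, n = 3), and Ddx23, the PRP28 helicase of spliceosome activation, 2.51 ± 0.688 and 2.82 ± 1.41 FPKM. The summed level of the 10 genes was 164.0 to 170.9 FPKM in KO and 162.1 to 182.3 FPKM in wild-type libraries.

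**Figure D4:**
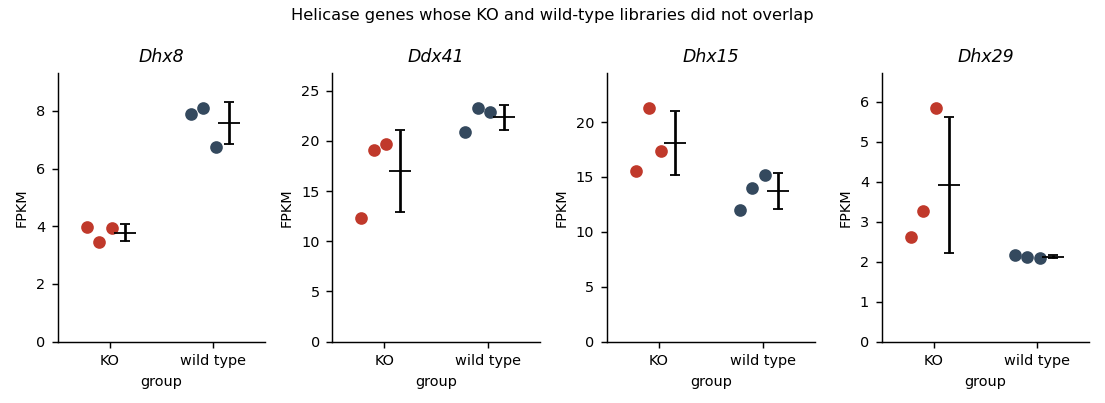
FPKM of the 4 helicase genes whose groups did not overlap, 1 point per library, with Zcchc8 KO left of wild type and the mean and SD (n = 3) as bars beside the points. Dhx8 and Ddx41 are lower in KO by value and Dhx15 and Dhx29 higher, and none passed adjustment over all genes.

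Helicases known to act on R-loops, the structures the study is about, were not called in either direction. The 10 genes listed were Ddx1, Ddx5, Ddx17, Ddx18, Ddx19a, Ddx21, Ddx23, Ddx39b, Ddx41 and Dhx9. None passed, and none had an unadjusted p under 0.05 (limma), against 9.2% of all tested genes. By value 4 were higher and 6 lower in KO, and the median log2 change was -0.05. For 1 of the 10, Ddx41, the groups did not overlap, which held for 15.2% of all tested genes. The list's summed level was 314.1, 316.0 and 323.0 FPKM in KO and 306.6, 324.5 and 319.7 FPKM in wild-type libraries. Ddx5 and Ddx39b make up most of that sum. The best bounded was Ddx5, with a log2 change of 0.06 and a 95% interval of -0.16 to 0.28, which is 0.892 to 1.21 times the wild-type level on this scale. For Ddx39b the interval was -0.29 to 0.36.

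Dhx9, RNA helicase A, which unwinds RNA-DNA hybrids and G-quadruplexes, was low in this table at 2.28, 3.94 and 1.66 FPKM in KO and 1.90, 3.43 and 1.70 FPKM in wild-type libraries. Library 2 was the highest in each group, and the 95% interval of the log2 change ran from -0.75 to 0.95. Ddx1, a helicase of the tRNA ligase complex and of double-strand break repair, measured 11.8, 14.8 and 10.2 FPKM in KO and 12.5, 6.51 and 9.09 FPKM in wild-type libraries, and the groups overlapped. Ddx21, a nucleolar helicase that links RNA polymerase I and II transcription to ribosome assembly, averaged 19.6 ± 4.73 FPKM in KO and 22.4 ± 3.097 FPKM in wild type (SD, n = 3). Ddx18, a nucleolar helicase needed for ribosome assembly, averaged 9.18 ± 3.22 and 9.86 ± 1.775 FPKM. Dhx36, the other G-quadruplex helicase, measured 1.90, 1.399 and 2.22 FPKM in KO and 2.59, 1.94 and 2.96 FPKM in wild-type libraries, again with overlap.

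The 16 helicases of ribosome biogenesis, which remodel pre-ribosomal RNA in the nucleolus, had 7 genes higher and 9 lower in KO by value. None of them passed the test, and none was without overlap, where 15.2% of all tested genes were. The sum of the 16 was 220.4, 232.4 and 209.6 FPKM in KO and 226.7, 216.6 and 219.8 FPKM in wild-type libraries. Ddx24 averaged 28.4 ± 3.0999 FPKM in KO and 22.6 ± 5.20 FPKM in wild type (SD, n = 3), Ddx55 4.06 ± 2.10 and 6.12 ± 1.06 FPKM, and Ddx31 5.39 ± 0.431 and 7.92 ± 2.85 FPKM. For Ddx51 the wild-type libraries were spread from 1.71 to 8.87 FPKM, around the KO values of 5.66, 7.39 and 8.99 FPKM. Ddx55, Ddx24 and Ddx51 went below an unadjusted p of 0.05 once each, without KO library 2, without wild-type library 1 and without wild-type library 2 in this order (limma adjusted p = 0.537, 0.582 and 0.635).

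Of the 5 helicases of translation and cytoplasmic mRNA, 2 were higher and 3 lower in KO by value. Dhx29, which helps the small ribosomal subunit scan structured leaders (chromosome 13, 112927454 to 112969432, plus strand), measured 2.61, 3.27 and 5.83 FPKM in KO and 2.16, 2.12 and 2.09 FPKM in wild-type libraries. It was the fourth gene without overlap. The wild-type values were nearly equal while KO library 3 was more than 2-fold KO library 1, and the log2 change of 0.60 ± 0.34 (SE) had a limma adjusted p of 0.633. Without KO library 3 it was 0.33. Dhx34, a factor of nonsense-mediated decay, measured 3.36, 1.102 and 3.49 FPKM in KO and 4.24, 2.81 and 8.12 FPKM in wild-type libraries, with overlap (limma adjusted p = 0.669). Ddx6, the helicase of P-bodies and translational repression, ran from 2.44 to 5.71 FPKM in KO and from 1.39 to 5.40 FPKM in wild-type libraries.

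Ddx3x and Ddx3y are X and Y copies of one translation helicase, and both were expressed in every library. Ddx3x measured 13.6, 13.9 and 15.3 FPKM in KO and 12.8, 15.9 and 17.7 FPKM in wild-type libraries. Ddx3y measured 9.88, 7.25 and 10.3 FPKM in KO and 9.23, 9.88 and 10.8 FPKM in wild-type libraries, so each library held Y-linked transcripts. The summed Y-linked genes Ddx3y, Eif2s3y, Kdm5d and Uty came to 21.9 to 34.9 FPKM in KO and 27.5 to 34.0 FPKM in wild-type libraries. The coding sequences of the pair are 84.7% identical over aligned bases, with a longest identical run of 35 bases, and around the motif they read as follows.
Ddx3x: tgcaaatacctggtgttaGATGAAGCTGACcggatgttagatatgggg
Ddx3y: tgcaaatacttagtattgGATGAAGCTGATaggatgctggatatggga
Ddx5 and its paralog Ddx17 are 70.9% identical and differed in level, with Ddx17 at 16.5 ± 0.348 FPKM in KO and 16.9 ± 3.28 FPKM in wild type (SD, n = 3). Ddx21 and its nucleolar paralog Ddx50 are 71.5% identical, and Ddx50 averaged 11.99 ± 2.37 and 13.8 ± 1.21 FPKM.

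The export helicases Ddx19a and Ddx19b, which remodel mRNA at the nuclear pore, are neighbours on chromosome 8 and 93.2% identical over aligned coding bases, with an identical run of 275 bases, so how reads were divided between them is uncertain. Ddx19a measured 1.67, 1.85 and 0.471 FPKM in KO and 1.61, 1.48 and 1.72 FPKM in wild-type libraries. Ddx19b, below the filter, was listed at 0.398, 0.235 and 0.171 FPKM in KO and at 0.394, 2.33 and 0.314 FPKM in wild-type libraries. Wild-type library 2 was the only one with Ddx19b above 0.4 FPKM. Their windows around the motif are the same letter for letter.
Ddx19a and Ddx19b: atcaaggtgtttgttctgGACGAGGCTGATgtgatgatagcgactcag

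Helicases with other duties were not called either. Ddx11, an iron-sulfur DNA helicase of sister chromatid cohesion, measured 4.95, 2.23 and 4.09 FPKM in KO and 4.59, 6.80 and 6.26 FPKM in wild-type libraries, and the groups overlapped by 1 library on each side (limma adjusted p = 0.642). Dhx32, for which no role was assigned, averaged 5.999 ± 1.05 FPKM in KO and 7.83 ± 1.42 FPKM in wild type (SD, n = 3). The mitochondrial ribosome helicase Ddx28 was the least even of the abundant members, at 23.1, 32.1 and 7.47 FPKM in KO and 31.1, 9.23 and 14.8 FPKM in wild-type libraries. Ddx28 has 1 exon and lies wholly within Dus2 on the opposite strand, and 72 bases of it overlap Dus2 exons. Dus2 itself stood at 1.88, 1.91 and 3.85 FPKM in KO and 2.29, 6.12 and 1.85 FPKM in wild-type libraries, and its part in the Ddx28 values was not tested.

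Spread between replicates differed widely within the family. The coefficient of variation within groups was under 10% for 5 genes, with Ddx5 at 5.56% and Dhx8 at 8.71%, and over 25% for 25 genes. Across the 47 tested genes its Spearman correlation with the mean level was -0.69, a description over genes that share the same 6 libraries. The median within-group SD on the log2(FPKM + 1) scale was 0.32 for the helicases and 0.34 for all tested genes. FPKM and exon length had a Spearman correlation of -0.24 over the 48 genes and -0.40 over 11599 tested genes with a length. Length is the divisor in FPKM, so part of a negative correlation is built into the measure. It does not show that longer genes had fewer transcripts.

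**Figure D5:**
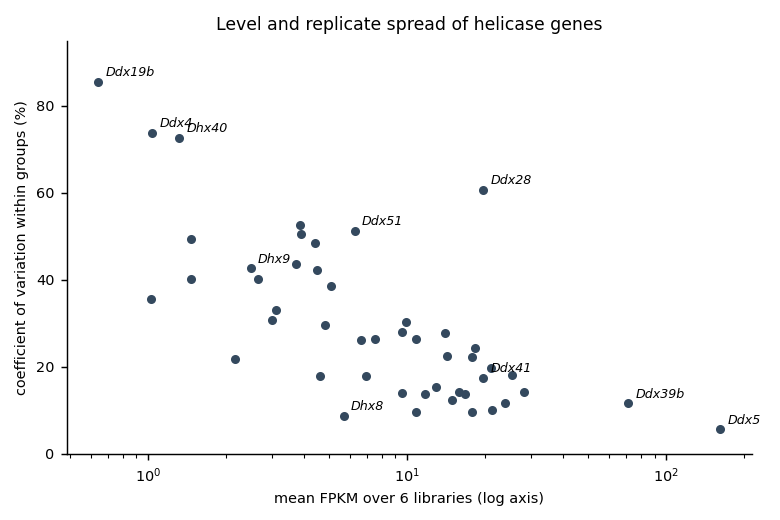
Coefficient of variation within groups (%), as the root mean square over the 2 groups, against mean FPKM over the 6 libraries on a log axis, 1 point per helicase gene. Ddx5 and Dhx8 have low spread (5.56% and 8.71%), while Ddx28, despite a mean of 19.6 FPKM, reaches 60.7%.

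Related helicases with other names and known partners of the family were likewise not called. Of 15 tested relatives, which include the eIF4A translation helicases, the spliceosomal Snrnp200 and the exosome helicase Mtrex, none passed, 6 were higher and 9 lower in KO by value. Eif4a1, the helicase of the cap-binding complex, had the smallest p, at 118.6, 117.9 and 119.8 FPKM in KO and 93.9, 106.4 and 101.0 FPKM in wild-type libraries (limma adjusted p = 0.526). Its groups did not overlap. Skiv2l, the helicase of the cytoplasmic exosome, came next at 6.33 ± 1.47 FPKM in KO and 8.63 ± 0.864 FPKM in wild type (SD, n = 3), also without overlap. Among the partners below, Gpatch1, Nup214 and the decapping and P-body genes Edc4 and Lsm14a were without overlap too. This held for 15.2% of all tested genes. Among 16 tested G-patch proteins, a family that holds activators of DEAH helicases, 4 were higher and 12 lower in KO by value and none passed. Gpatch1 stood at 2.02, 5.95 and 4.90 FPKM in KO and 9.90, 6.85 and 9.26 FPKM in wild-type libraries (limma adjusted p = 0.478), and Zgpat averaged 8.85 ± 2.52 and 12.4 ± 3.92 FPKM. None of the 8 genes of the SMN complex, in which Ddx20 works, passed, with Gemin7 at 63.6 ± 21.2 FPKM in KO and 81.0 ± 8.85 FPKM in wild type and Smn1 at 6.94 ± 1.57 and 4.33 ± 2.61 FPKM. The 10 tested genes of decapping and P-bodies, the setting of Ddx6, gave no call, with the decapping activator Dcp1a at 2.44 ± 0.750 FPKM in KO and 3.93 ± 1.19 FPKM in wild type and Eif4enif1 at 4.98 ± 1.06 and 7.20 ± 3.12 FPKM. Nor did the 2 export partners of Ddx19, the nucleoporin Nup214 (2.51 ± 0.135 FPKM in KO and 3.64 ± 0.645 FPKM in wild type) and Gle1 (10.5 ± 4.39 and 13.1 ± 2.73 FPKM). Among the 3 partners of Ddx1, the tRNA ligase Rtcb averaged 85.1 ± 9.86 FPKM in KO and 80.6 ± 5.52 FPKM in wild type and Fam98b 0.727 ± 0.753 and 1.86 ± 0.653 FPKM. The microprocessor genes Drosha (1.65 ± 0.536 FPKM in KO and 1.09 ± 0.786 FPKM in wild type) and Dgcr8 (3.73 ± 0.647 and 3.83 ± 1.85 FPKM) did not pass either.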

How the data were processed

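The authors deposited FPKM per gene symbol for 6 libraries. Per the submitters' processing notes, fastp, Bowtie2 and featureCounts were used with build mm10. The sources used here state no versions, no strand setting and no rule for multiply matched reads. Symbols were matched to GENCODE M21 (GRCm38) for 14693 of 14986 genes (98%). FPKM times exon length came out as whole reads within 0.05 for 97.7% to 98.2% of values below 100 reads, which gave the reads per library. These cover counting error only, since amplified cDNA repeats molecules. Replicates differed by more than counting error (chi-square per gene 53.2 to 75.6). Tests used limma 3.58.1 in R 4.3.3 on log2(FPKM + 1), a scale that shrinks fold changes of low genes, with lmFit, eBayes with a trend and genes of mean FPKM 1 or more; the procedure was tested on 5 simulated tables with 200 altered genes. Exact permutation used scipy 1.17.1, alignments Biopython 1.88 and figures matplotlib 3.10.9. The members, lists and rules were chosen with earlier results of these data known. Named are the 12 members of smallest p, the 5 of highest level and the tested one of lowest level, the most abundant of each role list, the R-loop list, paralog pairs, and the 2 genes of smallest p in related lists. Ddx6, Dhx36, Dhx40, Dhx33 and Dhx37 were named besides, after their values were seen. Alternatives changed the pseudocount, filter, scaling, variance trend, block and libraries used, and used voom on recovered reads, which was chosen after seeing the data.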

Additional observations from a re-analysis of the deposited data

How the results depend on the processing

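No helicase passed under any of the 16 other settings, and the lowest adjusted p of any of them was 0.314, for Dhx8 under rescaling to a fixed total. Dhx8 was lower in KO in all 16, with log2 changes from -0.99 (voom) to -0.79. The helicases' median log2 change of -0.10 was -0.044 under quantile scaling and -0.16 to -0.030 with one library left out. It was below 0 throughout. The median log2 level of the helicases in a library varied by 0.048 (SD) between libraries of a group. For single helicases the median within-group SD was 0.32. Calls over all genes, 27, came to 8 without the variance trend, 8 with voom, 11 with the replicate block and 11 to 19 without one library. Same-numbered libraries did not deviate together over all tested genes (correlations of 0.0235, 0.0071 and 0.00369). Such correlations cannot exclude pairing, and no label says what a number shares. With the block no helicase was called either. Helicases whose groups did not overlap, 4 in all, came to 3 under rescaling to a fixed total, where the groups of Dhx15 overlapped. Without 1 library the count was 6 to 12, where the share of all genes was 24.5% to 26%. Of the 33 tested helicases given with values 16 had a log2 change of the other sign in some setting. Under quantile scaling these were Ddx5 (-0.022) and Ddx39b (-0.0022). Dhx40, listed at 0 in KO library 1 and at 0.13 in the reported fit, was at -0.37 with a pseudocount of 0.1 and at -2.14 with voom. Without one library the log2 changes ran from -0.18 to 0.076 for Ddx17, -0.37 to 0.034 for Ddx18, -0.39 to 0.087 for Ddx19a, -0.27 to 0.20 for Ddx23, -0.28 to 0.70 for Ddx28, -0.090 to 0.12 for Ddx39b, -0.21 to 0.018 for Ddx3y, -0.56 to 0.22 for Ddx4, -0.20 to 0.0078 for Ddx56, -0.26 to 0.078 for Ddx60, -0.43 to 0.28 for Ddx6, -0.13 to 0.64 for Dhx33, -0.65 to 0.15 for Dhx37, -0.21 to 0.70 for Dhx40 and -0.14 to 0.32 for Dhx9, as for Zcchc8 (-0.11 to 0.37). For 31 of the 33 the log2 change moved by over 1.5 times without some library, and among genes without overlap these were Ddx41 (-0.20 without KO library 1) and Dhx29 (0.33 without KO library 3). The cause was not tested. Spread between replicates exceeded counting error in every tested helicase, with a chi-square per degree of freedom of 4.40 or more and a median of 53.6.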

Other observations

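Dhx40 and Ddx4 had their lowest values in KO library 1, and Dhx33 and Dhx37 differed widely between KO libraries. Dhx40, a DEAH helicase, was listed at 0 FPKM in KO library 1, against 2.55 and 2.09 FPKM in the other KO libraries and 1.20, 0.465 and 1.61 FPKM in wild-type libraries. By counting error alone, a count of 0 allows up to 0.0276 FPKM (3 reads) there. The replicates of Dhx40 spread beyond that error (chi-square of 76.5 per degree of freedom), so the level is not bounded by it. Ddx4, the germ-line helicase, had 6, 124 and 51 reads in KO libraries and 58, 63 and 55 reads in wild-type libraries. Dhx33, a helicase of ribosome assembly, stood at 1.79, 7.09 and 4.12 FPKM in KO and 3.36, 3.20 and 2.86 FPKM in wild-type libraries, so its KO libraries were spread around a narrow wild-type range. KO library 2, the highest for Dhx33, was also the highest of the 6 for Dhx37, another nucleolar DEAH helicase, at 7.06 FPKM. These genes were chosen after their values were seen.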
